A study of Rattus norvegicus with 10 samples.

Results

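The early secretory pathway of the choroid plexus was followed through 46 genes, out of 32883 genes with a value in every rat's file. They were chosen by symbol among the genes named in the study's gene tables. The rule took symbols beginning with SEC, SSR, SPCS, SRP, TMED, COP (COPS excepted), PDIA, KDELR or RPN. It also took CALR, CANX, HSPA5, HSP90B1, P4HB, DDOST, OSTC, DAD1, TRAM1 and SURF4. Symbols were linked to values by Ensembl identifier for 2015 genes named in the study's gene tables, and the 7 symbols carried by more than 1 identifier were left out, none of which met the rule. The larger of those tables was at hand only as its most abundant part, so that pathway genes of low level were not covered. COPRS met the rule by its first letters alone. It encodes a nuclear cofactor of an arginine methyltransferase, not a coat protein, and is given apart from the other 45 genes.

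The tissue came from 10 female Wistar rats of 27 weeks, kept for 21 weeks on a HFD (60% of energy from fat) or on a control diet with matched nutrient sources (10%). Each diet was represented by 5 rats, with 1 library per rat and no pooling, and each library held choroid plexus of the lateral and the fourth ventricles. The rats of the study were picked for experiments by body weight, control rats from below and HFD-fed rats from above a limit, so that diet and weight cannot be told apart. The question for these genes was whether the diet moved their transcript levels.

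The choroid plexus secretes cerebrospinal fluid and, with it, large amounts of protein such as transthyretin. A protein bound for secretion is recognised by its signal sequence while it is being made, is threaded through the Sec61 channel into the endoplasmic reticulum (ER), and there loses the signal sequence, gains sugar chains and is folded by chaperones. COPII-coated vesicles then carry it towards the Golgi apparatus, while COPI-coated vesicles return escaped ER proteins and receptors.

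Levels were expressed as TPM, each gene's share of all transcripts after correction for transcript length, so that levels of different genes can be compared within a rat. A scaling factor, the median ratio of a rat's TPM to those of the average rat, was divided out for each rat and was 0.747 for control rat 1 and 0.944 to 1.13 for the other 9 rats (rescaled TPM). Control rat 1 stood apart from all others: it departed by more than 2-fold from the median over the other rats at 1842 genes, where each of the others did so at 171 to 235, and the mean effective transcript length was 789 bases against 874 to 968. Results that rest on this rat are therefore given with and without it. Transthyretin (TTR) made up 32.2% to 39.7% of all TPM, and all 10 epithelial markers were present in every rat, from OTX2 at 55.8 rescaled TPM or more upwards, as the tissue label requires. In bulk tissue, fewer cells of a type and less RNA per cell cannot be told apart. TPM hold no read number, so the depth of the libraries is unknown.

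All 46 genes were abundant. They were named mainly from the most abundant part of a gene table, which largely set their ranks beforehand. Their mean rescaled TPM ran from 47.7 for SSR3 to 504 for CALR, ranks 1938 and 193 of the 12198 genes tested. Summed over the 46 genes, rescaled TPM were 7007 to 8088 in control rats and 6738 to 7610 in HFD-fed rats, so the groups overlapped. As a share of all TPM the genes took 0.604% in control rat 1, 0.714% to 0.754% in the other control rats and 0.673% to 0.764% in HFD-fed rats.

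**Figure D1:**
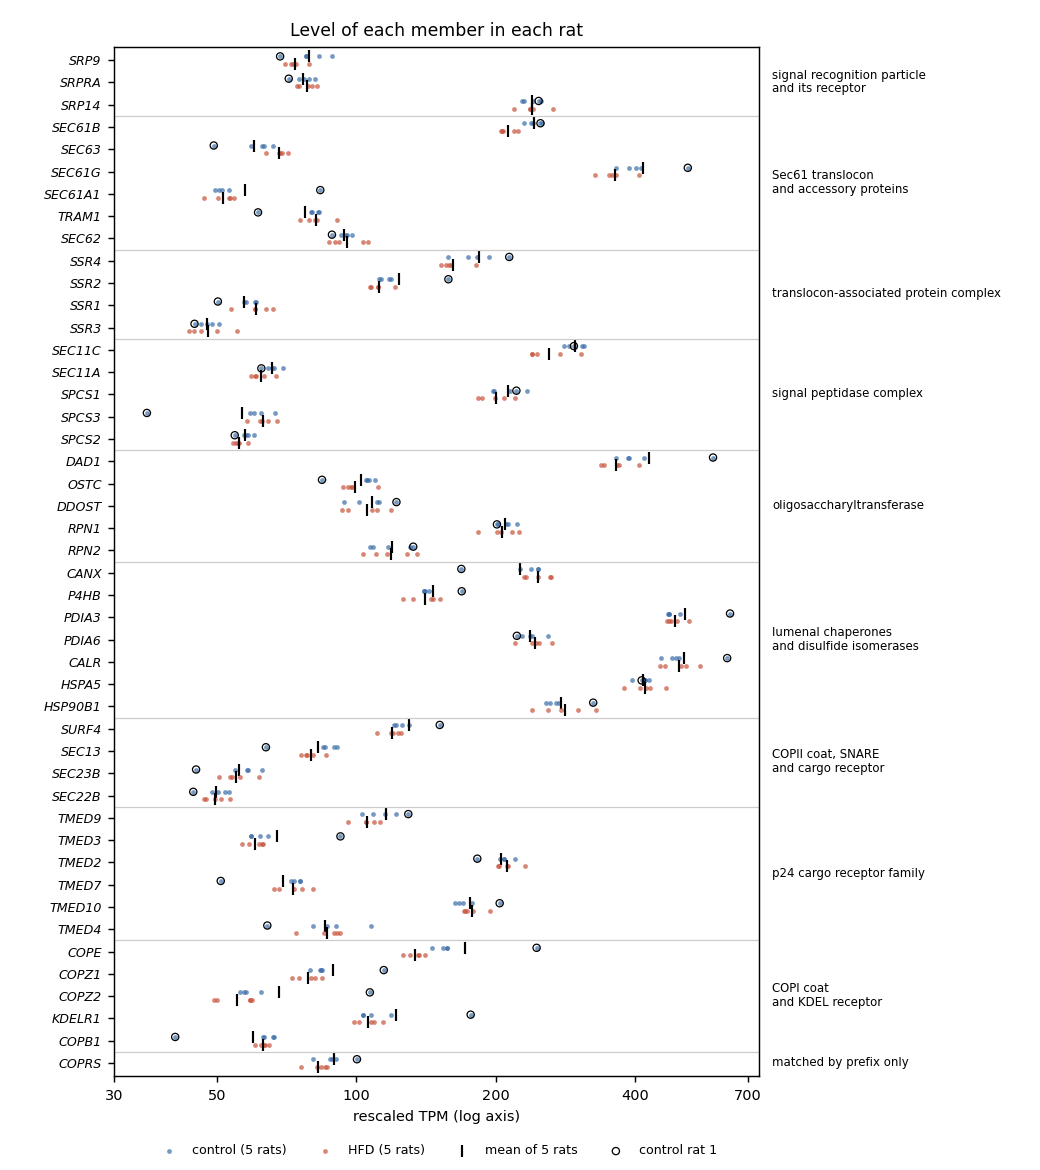
Rescaled TPM (log axis) of the 46 genes in each of the 10 rats, ordered by role, with a tick for the mean of 5 rats per diet and an open ring around control rat 1. Lumenal chaperones, SEC61G and DAD1 lie above most coat and cargo receptor genes, and the ring lies outside the other 9 rats for many genes, on either side.

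No gene of the pathway passed the limma test of rescaled TPM between the diets after correction. The limma test, with Benjamini-Hochberg adjustment over all 12198 genes, gave 0 of 46 genes with an adjusted p under 0.05 (0% of all genes tested), and the smallest adjusted p among them was 0.542. An unadjusted p under 0.05 was reached by 4 of the 46 genes (8.70%), beside 8.59% of all genes tested, a share close to that of genes at large. SEC61B, COPE and SEC11C had the lower mean in HFD-fed rats (3 of 46, against 4.83% of all genes tested) and SEC63 the higher (1 of 46, against 3.76%). Of the 2015 genes named in the tables, which are of like abundance, 14.8% had such a p, 13.3% on the lower and 1.59% on the higher side. SEC61B and COPE were the 2 genes whose groups did not overlap, both lower in HFD-fed rats, beside 3.42% of all genes tested (2.02% lower, 1.4% higher).

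The median log2 fold change of the 46 genes, HFD against control, was -0.04, with 29 genes below 0 and 17 above. The median was 0.01 over all genes tested, -0.04 over the genes with a mean of at least 10 rescaled TPM and -0.08 over the genes named in the tables. The sign of the median depended on the scaling: with TPM as deposited it was 0.06, where all genes tested had 0.12. On that scale COPE alone reached an unadjusted p under 0.05, on the lower side, beside 5.11% of all genes tested (1.26% lower, 3.85% higher). Without control rat 1, 6 genes did (5 lower, 1 higher), beside 11.7% of all genes tested (6.33% lower, 5.41% higher), with the smallest adjusted p at 0.231 by limma.

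**Figure D2:**
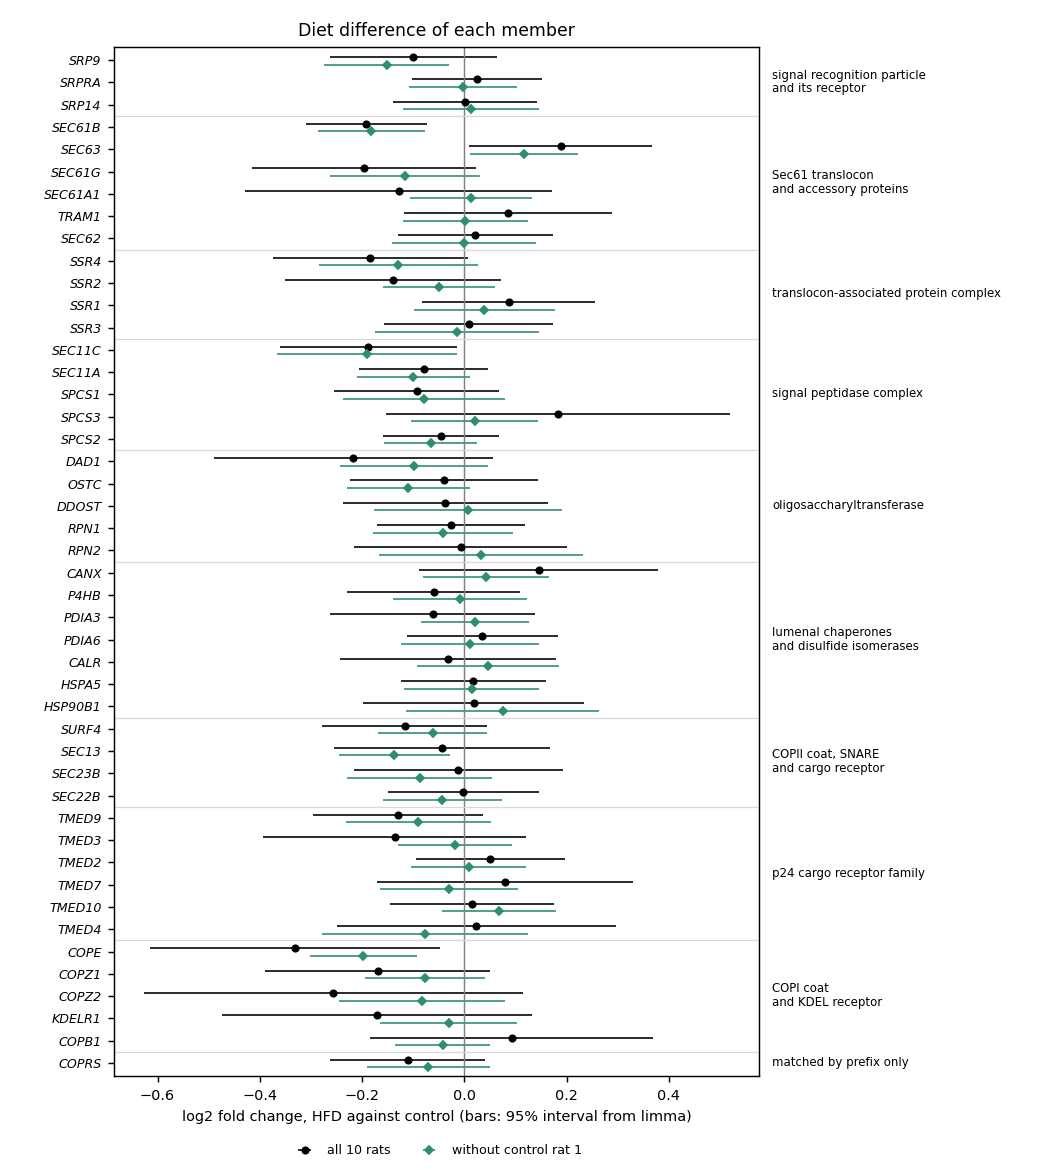
Log2 fold change of each of the 46 genes, HFD against control, on the log2(rescaled TPM + 0.1) scale, with its 95% interval from limma, for all 10 rats (circles) and without control rat 1 (diamonds). Most intervals cross 0 in both fits, and the intervals of SPCS3, DAD1, COPZ2, COPE, KDELR1 and COPB1 are much wider with control rat 1 than without it.

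The first step of the pathway is recognition of the signal sequence. SRP9 and SRP14 encode the pair of signal recognition particle proteins that bind the Alu domain of its RNA, and SRPRA encodes the receptor subunit that docks the particle at the ER. SRP9 was measured at 68.4, 88.5, 77.6, 83.1 and 77.7 rescaled TPM in control rats 1 to 5 and at 72.3, 78.9, 73.9, 72.8 and 70.0 in HFD-fed rats 1 to 5. Its groups overlapped, with control rat 1 the lowest of all 10, and the log2 fold change was -0.10 (95% interval -0.26 to 0.06). Without control rat 1 it was -0.15 (-0.27 to -0.03; limma, unadjusted p = 0.0197, adjusted p = 0.335), and with TPM as deposited 0.00. SRP14 stood at 248, 250, 241, 230 and 228 rescaled TPM in control rats and at 238, 266, 237, 240 and 219 in HFD-fed rats. The ranges of SRP14 coincided almost entirely (log2 fold change 0.00, interval -0.14 to 0.14). SRPRA had a log2 fold change of 0.02 (-0.10 to 0.15). SRP14 was more abundant than its partner, by a ratio of TPM of 3.62 in control rat 1, 2.77 to 3.10 in the other control rats and 3.12 to 3.38 in HFD-fed rats. The ratio, looked at after its values had been seen and given without a test, was thus separate between the diets only without control rat 1.

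SEC61B had the smallest p of the 46 genes over all 10 rats. It encodes the β subunit of the Sec61 channel, a small tail-anchored protein beside the pore-forming α subunit (SEC61A1) and the γ subunit (SEC61G). SEC61B (ENSRNOG00000006345) was measured at 249.8, 252.2, 238.7, 230.0 and 241.1 rescaled TPM in control rats and at 219.5, 223.1, 204.8, 206.7 and 206.9 in HFD-fed rats. All 5 HFD-fed rats lay below all 5 control rats, a separation found for 2.02% of all genes tested in that direction, with a mean of 242 ± 8.96 (SD, n = 5) on the control diet and 212 ± 8.45 (SD, n = 5) on the HFD. The log2 fold change was -0.19 ± 0.054 (SE; interval -0.31 to -0.07), a mean 12.4% lower. The exact two-sided permutation test gave p = 0.00794, the smallest that 5 rats against 5 allow, and limma an unadjusted p of 0.0046 and an adjusted p of 0.542. Without control rat 1 the log2 fold change was -0.18. With TPM as deposited it was -0.09 and the groups overlapped. The study called SEC61B different between the diets in these same samples, by DESeq2 on read counts (adjusted p under 0.05). Its difference here is thus not independent evidence, and the limma test on rescaled TPM did not reach that threshold.

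The partners of SEC61B in the channel overlapped between the diets. SEC61G, the most abundant gene of the group, had 520, 402, 388, 411 and 364 rescaled TPM in control rats and 327, 409, 365, 357 and 352 in HFD-fed rats. Its log2 fold change was -0.20 (interval -0.42 to 0.02), and -0.12 (-0.26 to 0.03) without control rat 1, whose value was the highest of all 10. SEC61A1 stood at 83.5 in control rat 1, 49.4 to 53.0 in the other control rats and 46.9 to 54.3 in HFD-fed rats. Hence its log2 fold change of -0.13 became 0.01 (-0.11 to 0.13) without that rat. TRAM1, which assists the insertion of some nascent chains, and SEC62, a component of the post-translational route, had log2 fold changes of 0.09 and 0.02, which were both 0.00 without control rat 1.

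SEC63, the ER membrane protein that brings HSPA5 to the channel, was the 1 gene with an unadjusted p under 0.05 on the higher side, and its values were singled out after they had been seen. It was measured at 49.2, 63.2, 62.5, 59.3 and 66.0 rescaled TPM in control rats and at 63.9, 71.0, 69.0, 68.4 and 68.2 in HFD-fed rats. HFD-fed rat 1 lay below control rat 5, and the other HFD-fed rats lay above every control rat. The log2 fold change was 0.19 (interval 0.01 to 0.37; limma, unadjusted p = 0.0415, adjusted p = 0.569), and 0.12 (0.01 to 0.22) without control rat 1, the lowest of the 10 rats.

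Ratios of TPM within a rat do not depend on its scaling factor. They were formed for pairs chosen after their values had been seen and are given without a test. SEC61B to SEC63 was 5.08 in control rat 1, 3.65 to 3.99 in the other control rats and 2.97 to 3.43 in HFD-fed rats, with no overlap. This pair joined SEC61B, already separate between the diets, to SEC63, the gene singled out on the higher side. That choice favoured a separation, which adds no support for either gene. SEC61B to SEC61A1 was 2.99 in control rat 1, 4.50 to 5.11 in the other control rats and 3.84 to 4.41 in HFD-fed rats, so that these groups were separate only without control rat 1. SEC61B to SEC61G overlapped, at 0.480 to 0.663 against 0.546 to 0.671.

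**Figure D3:**
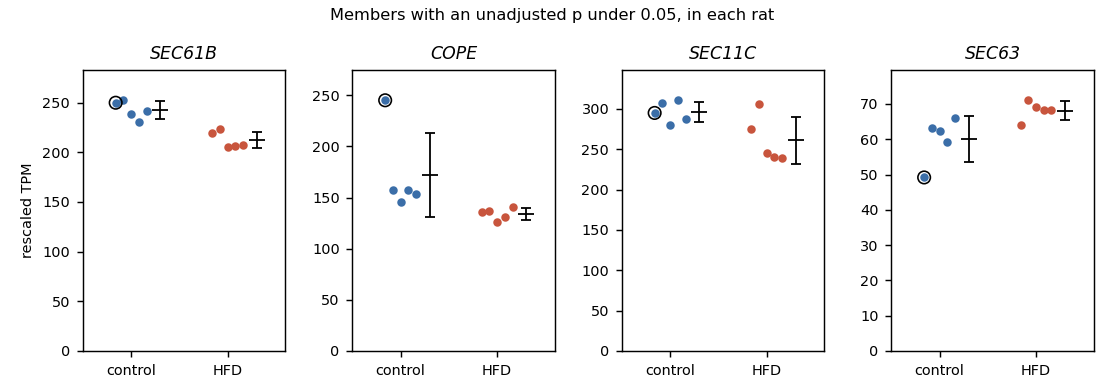
Rescaled TPM of SEC61B, COPE, SEC11C and SEC63 in each rat, with the mean and SD of 5 rats beside the points, axes from 0 and control rat 1 ringed. The diets are separate for SEC61B and COPE and overlap for SEC11C and SEC63, and the ringed rat lies far above the other control rats for COPE.

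The translocon-associated protein complex (SSR1 to SSR4) sits beside the Sec61 channel and helps some signal sequences to enter. SSR4, its δ subunit, was both the most abundant and the one with the smallest p. It had 214, 193, 158, 182 and 174 rescaled TPM in control rats and 160, 181, 159, 156 and 153 in HFD-fed rats. The groups overlapped through control rat 3 and HFD-fed rat 2, and the log2 fold change was -0.18 (interval -0.37 to 0.01; limma, unadjusted p = 0.0568) with all rats and -0.13 without control rat 1. SSR2 had -0.14, SSR1 0.09 and SSR3 0.01, which became -0.05, 0.04 and -0.01 without that rat.

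Signal peptidase removes the signal sequence inside the ER. SEC11A and SEC11C encode its alternative catalytic subunits and SPCS1, SPCS2 and SPCS3 its other subunits. SEC11C was measured at 295, 308, 281, 311 and 288 rescaled TPM in control rats and at 275, 306, 246, 240 and 239 in HFD-fed rats. HFD-fed rats 1, 3, 4 and 5 lay below every control rat, whereas HFD-fed rat 2 lay among them. Means were 296 ± 12.8 in control and 261 ± 29.0 in HFD-fed rats (SD, n = 5 each), and the log2 fold change was -0.19 (interval -0.36 to -0.01; exact two-sided permutation p = 0.0476; limma, adjusted p = 0.569). It was -0.19 without control rat 1 too (unadjusted p = 0.0366 by limma), and -0.08 with TPM as deposited. SEC11A, the less abundant catalytic subunit, had a mean of 65.6 and 62.1 and a log2 fold change of -0.08 (-0.21 to 0.05). The ratio of SEC11C to SEC11A was 4.35 to 4.73 in control rats and 3.94 to 4.57 in HFD-fed rats, and so overlapped. SPCS1 and SPCS2 had log2 fold changes of -0.09 and -0.05, and SPCS3 one of 0.18 that was 0.02 without control rat 1, where it was lowest (35.3 against 57.9 to 67.3).

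The oligosaccharyltransferase attaches the preformed sugar chain to asparagine residues of entering proteins. All 5 of its measured subunits had a mean difference below 0, from -0.22 for DAD1 to -0.01 for RPN2, and none passed the test. DAD1, both the most abundant of them and the one with the smallest p, had 589, 419, 387, 388 and 365 rescaled TPM in control rats and 369, 407, 366, 337 and 343 in HFD-fed rats. The groups of DAD1 overlapped, and its log2 fold change was -0.10 (interval -0.24 to 0.05) without control rat 1, the highest by far. OSTC, a subunit of the form that works at the Sec61 channel, moved the other way, from -0.04 with all rats to -0.11 (-0.23 to 0.01) without control rat 1. RPN1 and DDOST had -0.03 and -0.04. The shared sign was lost with TPM as deposited, where DAD1 alone was below 0, and without control rat 1, where DDOST was at 0.01 and RPN2 at 0.03.

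The lumenal chaperones were the most abundant group, and none passed the test. HSPA5 (BiP), the Hsp70 chaperone of the ER, had 413, 395, 428, 420 and 420 rescaled TPM in control rats and 378, 410, 465, 430 and 421 in HFD-fed rats. HFD-fed rats held both the lowest and the highest of its 10 values. Means were 415 ± 12.6 and 421 ± 31.6 (SD, n = 5 each), and the log2 fold change was 0.02 (interval -0.12 to 0.16; exact two-sided permutation p = 0.77). HSPA5 was near its group in control rat 1, at 0.994 of the mean of the other control rats.

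CALR and CANX, the soluble and the membrane-bound lectin chaperone for newly glycosylated proteins, stood apart in control rat 1 in opposite directions. CALR had 632, 490, 497, 481 and 454 rescaled TPM in control rats and 454, 515, 551, 465 and 503 in HFD-fed rats. CANX had 169, 247, 246, 226 and 238 in control rats and 231, 263, 262, 247 and 232 in HFD-fed rats. Both overlapped between the diets, with log2 fold changes of -0.03 (interval -0.24 to 0.18) and 0.15 (-0.09 to 0.38). Without control rat 1 they were 0.05 and 0.04. HSP90B1, the Hsp90 of the ER, and the disulfide isomerases PDIA6, P4HB and PDIA3, the partner of both lectins, had log2 fold changes of 0.02, 0.04, -0.06 and -0.06, each with an interval across 0. Without control rat 1 these were 0.08, 0.01, -0.01 and 0.02, again each with an interval across 0.

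Promoter windows of 3 of these chaperones are printed because they share the ER stress response element, through which ATF6 and NF-Y act when unfolded protein builds up in the ER. Promoters were RefSeq sequences of build GRCr8, from 250 bases before to 50 after each gene's start, found by symbol and reported for 39 of the 46 genes. SEC61A1, TRAM1, PDIA3, PDIA6, SURF4 and COPRS were not matched. The element, CCAAT and CCACG with 9 bases of any kind between them, was searched on both strands and was in 3 of the 39 promoters (CALR, HSPA5 and HSP90B1, the last with 2 copies) and in 0.0728% of all 27457 promoters. In the lines that follow the capitals mark its fixed letters.
HSPA5, chr3:38452963-38453001, plus strand, first base 43 before the start: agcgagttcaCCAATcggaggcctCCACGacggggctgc
CALR, chr19:40213125-40213163, minus strand (opposite to the gene): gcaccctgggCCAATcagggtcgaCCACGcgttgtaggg
HSP90B1, chr7:23012441-23012479, minus strand: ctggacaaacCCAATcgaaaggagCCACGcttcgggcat
HSP90B1, chr7:23012337-23012375, plus strand (opposite to the gene): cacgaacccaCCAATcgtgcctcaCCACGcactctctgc

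None of these 3 genes had an unadjusted p under 0.05, and their log2 fold changes were 0.02 (HSPA5), 0.02 (HSP90B1, interval -0.20 to 0.23) and -0.03 (CALR). The upper bounds of HSPA5 and CALR were 0.16 and 0.18 on the log2 scale. A related element, ATTGG and CCACG with 1 base of any kind between them, was in 0 of the 39 promoters and in 0.0583% of all. A match describes the letters of a window and not a bound site.

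Export from the ER was represented by SEC13 and SEC23B of the COPII coat, the SNARE SEC22B that acts in fusion between ER and Golgi membranes, and SURF4, a cargo receptor for soluble secreted proteins. SURF4 had 151, 130, 126, 122 and 120 rescaled TPM in control rats and 120, 125, 119, 111 and 123 in HFD-fed rats. These ranges overlapped, and the log2 fold change was -0.12 (interval -0.28 to 0.04), or -0.06 without control rat 1. SEC13 rested on the same rat in the other direction. It stood at 63.8 in control rat 1, 84.6 to 90.7 in the other control rats and 75.9 to 85.9 in HFD-fed rats. Its log2 fold change was thus -0.04 with all rats and -0.14 (-0.24 to -0.03; limma, unadjusted p = 0.0181, adjusted p = 0.332) without control rat 1, but 0.06 with TPM as deposited. SEC23B and SEC22B had -0.01 and 0.00.

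Members of the p24 family (TMED genes) are transmembrane proteins that cycle between ER and Golgi in both coats and select cargo. Of the 6 measured, 2 had a log2 fold change below 0 and 4 above, and none passed the test. TMED2, the most abundant, had 182, 220, 204, 208 and 209 rescaled TPM in control rats and 213, 231, 211, 202 and 203 in HFD-fed rats. TMED9, with the smallest p of the family, had 129, 115, 109, 122 and 103 in control rats and 109, 112, 105, 95.7 and 105 in HFD-fed rats. Both overlapped between the diets, at 0.05 (interval -0.09 to 0.20) and -0.13 (-0.30 to 0.04). TMED3 (-0.14), TMED7 (0.08), TMED4 (0.02) and TMED10 (0.02) each had an interval across 0 as well, and without control rat 1 TMED3 was at -0.02 and TMED7 at -0.03.

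Retrieval to the ER depends on the COPI coat and on KDEL receptors, which recognise the tail sequence of lumenal chaperones. COPE, the ε subunit of the coat, was the second gene with separate groups. It was measured at 245, 157, 146, 157 and 154 rescaled TPM in control rats and at 136, 136, 126, 131 and 141 in HFD-fed rats. Control rat 1 was far above all others, but the lowest of the other control rats still exceeded the highest HFD-fed rat. The log2 fold change was -0.33 (interval -0.61 to -0.05; exact two-sided permutation p = 0.00794; limma, unadjusted p = 0.0258, adjusted p = 0.553). Without control rat 1 it was -0.20 (-0.30 to -0.09; limma, unadjusted p = 0.00175, adjusted p = 0.231), and with TPM as deposited, where the groups overlapped, -0.23 (unadjusted p = 0.0295 by limma). Thus the size of the difference, though not its side, depended on that rat.

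The promoter of COPE is shown because it alone of the 39 promoters held the cyclic AMP response element TGACGTCA, found in 1.89% of all promoters of this length. A match in 1 of 39 is close to that share, and any part of the element in the values of COPE was not tested. The capitals mark the element, 223 to 216 bases before the start.
COPE, chr16:19159243-19159270, minus strand: cagatgaatgTGACGTCAcggagagcca

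The other coat genes did not separate by diet. COPZ1 and COPZ2, alternative ζ subunits, had log2 fold changes of -0.17 and -0.26, and KDELR1 -0.17, which became -0.08, -0.08 and -0.03 without control rat 1, the highest rat for each of them. COPB1, the β subunit, was lowest in control rat 1, at 40.6 against 60.3 to 66.3 in the other 9 rats, and its log2 fold change turned from 0.09 to -0.04 (interval -0.13 to 0.05) without it. The ratio of COPE to COPB1 was 6.04 in control rat 1, 2.20 to 2.50 in the other control rats and 2.06 to 2.24 in HFD-fed rats. COPRS, the gene matched by its letters only, had 100, 90.5, 80.5, 87.5 and 88.7 rescaled TPM in control rats and 83.8, 85.3, 75.9, 82.3 and 86.3 in HFD-fed rats, which overlapped (-0.11, interval -0.26 to 0.04).

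The deviation of control rat 1 thus ran through most complexes in both directions. It was the highest of the 10 rats for 18 of the 46 genes and the lowest for 15, and at 19 genes it departed by more than 1.3-fold from the median over the other rats, above it at 11 and below it at 8. No other rat lay that far from the rest for any of the 46 genes. Within the COPI coat COPE, COPZ1 and COPZ2 were high and COPB1 low, and within the Sec61 group SEC61A1 and SEC61G were high and SEC63 and TRAM1 low. Among HFD-fed rats, rat 2 was the highest of all 10 for 14 genes, and rats 4 and 5 were the lowest for 12 and 10. That order depended on the scaling. Summed over the 46 genes, rescaled TPM were 7610 in HFD-fed rat 2, 6738 in rat 4 and 6771 in rat 5. The sums of TPM as deposited ran the other way, at 7207, 7407 and 7638.

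**Figure D4:**
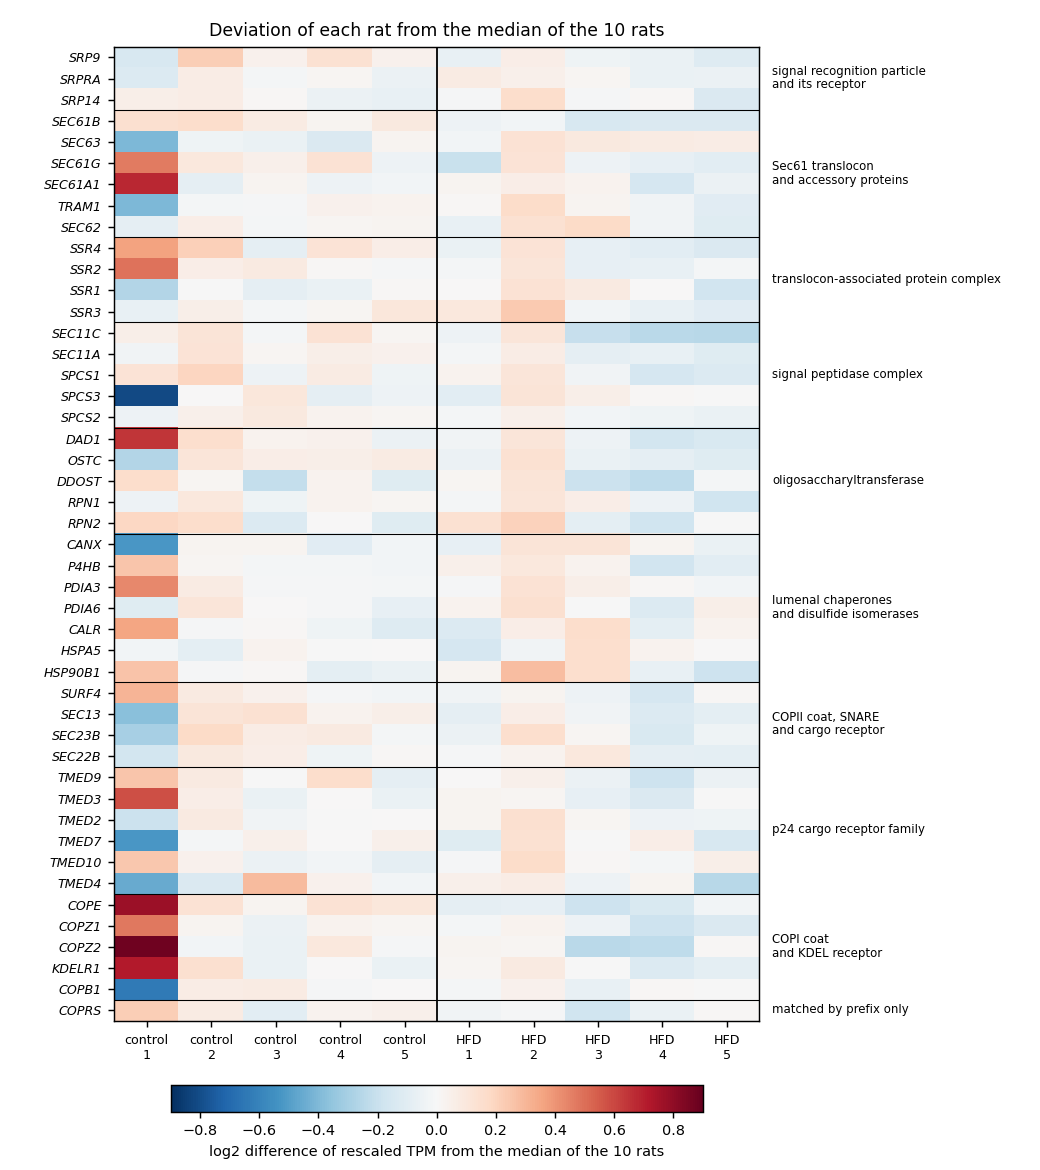
Log2 difference of rescaled TPM from the median of the 10 rats, for the 46 genes (rows, by role) and the rats (columns, control left and HFD right of the line). The column of control rat 1 holds the deepest colours of both signs. Paler shifts between the diets among the other 9 rats include lower SEC61B, SEC11C, COPE, SRP9 and SEC13 and higher SEC63 on the HFD.

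Other genes of the same pathway, listed by role and named in the same tables, gave a like picture. Of 89 such genes, 6 (6.74%) had an unadjusted p under 0.05, beside 8.59% of all genes tested. All 6 were on the lower side (4.83% of all genes tested) and none on the higher (3.76%), 0 had an adjusted p under 0.05 by limma, and the median log2 fold change was -0.07. They were 1 of 20 translocation and glycosylation genes (EMC6, -0.21), 2 of 37 folding and degradation genes (MANF, -0.18, and MYDGF, -0.26) and 3 of 32 ER to Golgi traffic genes (TRAPPC2L, TRAPPC3 and TRAPPC6A, -0.22, -0.15 and -0.35). Without control rat 1, 6 of the 89 again had such a p, all on the lower side, beside 11.7% of all genes tested (6.33% lower, 5.41% higher). ARF1 (-0.12) then took the place of TRAPPC2L (-0.15), TRAPPC6A was at -0.25 and the median was -0.04. With TPM as deposited, TRAPPC6A alone had such a p (1 of 89, beside 5.11% of all genes tested), and the median was 0.03. MANF, a small ER-resident protein secreted under ER stress, had means of 232 ± 16.7 and 204 ± 5.51 (SD, n = 5 each). Its log2 fold change was -0.14 without control rat 1, its highest rat. HSPA5, with which it is commonly induced, had a log2 fold change of 0.02. MANF was singled out by its p: of the 37 genes in its list, 25 lay below 0 and 12 above, such as SDF2L1 (-0.23) and DNAJC3 (0.18).

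Markers of the cell types in the tissue were set beside these values. Of 10 epithelial markers, KL and HTR2C had an unadjusted p under 0.05 (0.27 and 0.20, higher in HFD-fed rats, beside 3.76% of all genes tested), and of 4 blood, 5 stromal, 3 mural and endothelial and 3 macrophage markers none did. Without control rat 1, KL (0.16), HTR2C (0.19) and MYL9, a contractile protein of mural cells (0.33), were on the higher side (5.41% of all genes tested), and AQP1, the water channel of the epithelium (-0.18), and OGN, a proteoglycan of connective tissue, on the lower (6.33%). OGN stood at 10.6 rescaled TPM in control rat 1, 114 to 140 in the other control rats and 31.2 to 79.7 in HFD-fed rats. Its log2 fold change was -0.72 with all rats and -1.44 without control rat 1 (limma, unadjusted p = 0.000222, adjusted p = 0.191). The other stromal markers lay above 0 without that rat, at 0.19 (DCN), 0.17 (FBLN1), 0.09 (FMOD) and 0.08 (C7). OGN thus did not stand for its list. Beside MYL9, RGS5 was then at 0.09 and PLVAP at -0.05. The summed rescaled TPM of the epithelial list, mostly TTR, were 321557 to 536882 in control rats and 292987 to 410009 in HFD-fed rats, and those of the blood list 3658 to 7803 and 3102 to 6396. The stromal sums were 462 to 654 and 496 to 629, the mural and endothelial sums 235 to 277 and 252.2 to 299.8, and the macrophage sums 477 to 707 and 524 to 721. All 25 markers were above 0 in every rat, the sums overlapped between the diets for every list, and their part in the values of the secretory genes was not tested.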

How the data were processed

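Per the labels and the study's methods, paired-end libraries were aligned to Rnor_6.0 (rn6) with STAR (2.7.2a per the labels) and quantified with RSEM 1.3.3. The authors deposited 1 table per rat with TPM and FPKM per Ensembl gene identifier. The deposited FPKM served only for the mean effective transcript length. Neither unit holds read counts, so the depth is unknown and no counting interval is given.

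TPM were divided by each rat's median ratio to the geometric mean over 12037 genes. The test covered genes whose rescaled TPM averaged at least 1, as log2(rescaled TPM + 0.1) in limma 3.58.1 (R 4.3.3; lmFit, eBayes with a mean-variance trend, diet as the only term), with Benjamini-Hochberg adjustment over 12198 genes. On this scale the change of low genes is understated. Single genes were also tested by an exact two-sided permutation test over all assignments of the 10 rats to 5 and 5. Simulated data were used to test the limma step. Tables and figures came from python 3.11.15 with pandas 2.3.3, numpy 2.4.6, matplotlib 3.10.9 and scipy 1.17.1.

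Values per rat were given for SEC61B, HSPA5 and, in each role group, the gene with the smallest p and that with the highest level; SEC63 was added after its values were seen, and other genes are given by fold change or range. The genes, lists and scaling were chosen with earlier results of these data known. No pairing of control with HFD-fed rats by number was assumed, as the sample titles give none. Correlations of the deviations of same-numbered rats ran from -0.038 to 0.116, which cannot exclude a pairing. RSEM can divide reads among close paralogs. No annotation of the build was used, so gene coordinates of the measured genes are not given; promoter coordinates belong to GRCr8, and 1 promoter is not reported here. Alternatives were TPM as deposited, other scalings, pseudocounts and filters, array weights, no trend, a replicate block and leaving out each rat.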

Additional observations from a re-analysis of the deposited data

Results flagged for a closer look

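In 38 groups of 5 values, the gap of the highest or lowest rat to its neighbour was set against the range of the group, and 8 passed Dixon's limit of 0.71, where chance alone gives about 1.9 (1 in 20). In 7 of the 8 the rat was control rat 1. It had 632 rescaled TPM of CALR where the other control rats had 454 to 497, 245 of COPE (others 146 to 157), 589 of DAD1 (others 365 to 419) and 169 of CANX (others 226 to 247). The same rat stood apart in its scaling factor of 0.747, in its mean effective transcript length of 789 bases and in the share of all TPM taken by the 46 genes, 0.604%. The remaining case was HFD-fed rat 2, with 181 rescaled TPM of SSR4 where the other HFD-fed rats had 153 to 160. The part of transcript length or scaling in these values was not tested.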

How the results depend on the processing

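No gene of the 46 had an adjusted p under 0.05 by limma in any of 20 alternatives, with the smallest adjusted p between 0.134 and 0.723. The counts at an unadjusted p under 0.05 moved. With TPM as deposited there were 1 lower and 0 higher genes, beside 1.26% and 3.85% of all genes tested. With array weights there were 9 lower, beside 8.2% of all genes tested (4.83% otherwise). There were 0 higher without the trend (4.19% of all genes tested), or with deposited TPM after leaving out control rat 1 (4.09%; chosen after seeing the data). Leaving out 1 rat gave 1 to 5 lower genes and 0 or 1 higher. There were 5 lower without control rat 1, control rat 5 or HFD-fed rat 2, beside 6.33%, 5.58% and 4.63% of all genes tested. Without HFD-fed rat 3 there was 1 lower, beside 3.68%. There were 0 higher without control rat 4 or HFD-fed rat 2, 3, 4 or 5, beside 2.81% to 3.24%. SEC61B kept its p in 10 of 10 such fits, COPE in 9 and SEC11C in 5. The replicate block gave 4 lower and 1 higher genes, beside 5.05% and 4.3% of all genes tested, and a median of -0.04. The sample titles give no pairing of the rats. The median log2 fold change was -0.07 to -0.02 when 1 rat was left out and turned to 0.0648 with TPM as deposited.

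Of 300 values for 15 genes, 270 kept their side of 0 and of the threshold, 10 passed it only in an alternative, 9 lost it and 11 turned. CALR turned to 0.0719 with TPM as deposited, 0.0454 with array weights, 0.0466 without control rat 1 and 0.0588 with deposited TPM and without that rat, and ran from -0.0711 to 0.0466 when 1 rat was left out. HSPA5 turned to -0.0013 without control rat 2 and to -0.0194 without HFD-fed rat 3 (range -0.0194 to 0.0545). SRP14 turned to -0.0034 with upper-quartile scaling and to -0.0125, -0.015 and -0.0363 without control rat 4, control rat 5 and HFD-fed rat 2 (range -0.0363 to 0.034), and SRP9 to 0.0035 with TPM as deposited. The cause was not tested. With all 10 rats, the intervals of all genes but SEC61B, COPE, SEC11C and SEC63 crossed 0. This held even for differences as large as -0.26 (COPZ2) on the log2 scale.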
